A study of Caenorhabditis elegans with 2 samples.

Results

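The gst genes of Caenorhabditis elegans encode cytosolic glutathione S-transferases. All protein-coding genes of the WBcel235 annotation (Ensembl release 115) whose name is gst- followed by a number were taken, which gave 44 of the 19973 protein-coding genes on nuclear chromosomes. Each gene was examined for binding of a tagged transcription factor at its promoter, here the 1000 bp before and the 200 bp after any annotated 5′ end.

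The data are chromatin immunoprecipitation sequencing (ChIP-seq) peak lists from whole L2 larvae of strain OP178, genotype unc-119(ed3) III; wgIs178, with males and females pooled and chromatin sheared by sonication. Mutants of unc-119 are the usual recipients for such transgenes, since rescue of their movement marks the carriers. The labels state that the line stably carries SKN-1 with a C-terminal GFP-FLAG fusion, and the antibody given is skn-1. The free text of both samples names a different factor, PHA-4, so the labels do not settle the protein by themselves. There was 1 group with 2 biological replicates and no other condition, genotype, or untagged strain among the samples, so no contrast between conditions exists and every result is a description of binding in 1 state. The number of transgene copies and the tissues in which the fusion was present are not stated in those labels, and in whole larvae strong binding in few cells cannot be told apart from weaker binding in many.

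Glutathione S-transferases join the tripeptide glutathione to reactive compounds, which makes these compounds more soluble and easier to export, and some members isomerise metabolites or reduce peroxides. SKN-1, the worm counterpart of the mammalian Nrf factors, binds DNA as a monomer through a basic region and is known for activating detoxification genes in the intestine under oxidative or electrophilic stress. A reporter driven by the promoter of gst-4 is the usual readout of that response. PHA-4 is a forkhead factor of the FoxA type that specifies the pharynx.

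The sequences at the summits are shown first, because the word counts given further on are read from them and from the promoters of the other members. A peak's summit is its point of highest signal. A member was called bound when a summit of the authors' optimal list, the peaks that passed their reproducibility procedure, lay in its promoter; weakly bound when only a summit of the relaxed pooled list did; and unbound otherwise. Each sequence reads 5′ to 3′ on the strand of the gene, from the RefSeq copy of WBcel235 (ce11), and spans up to 60 bases on each side of the summit without entering the gene. Capitals mark the SKN-1 core ATCAT or GTCAT on either strand, so that it reads ATGAT or ATGAC in the other direction. The following 6 bound promoters, at distinct peaks, held the composite ATGATGAC on either strand within 100 bp of the summit. It contains 2 overlapping cores and is called the double core here.
gst-1, chrIII:9059075-9059195, plus strand: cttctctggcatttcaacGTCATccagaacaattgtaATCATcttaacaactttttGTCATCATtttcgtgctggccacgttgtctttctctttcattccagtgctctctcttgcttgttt
gst-13, chrII:9231396-9231456, plus strand: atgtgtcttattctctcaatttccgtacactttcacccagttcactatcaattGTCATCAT
gst-7, chrII:4881916-4882036, plus strand: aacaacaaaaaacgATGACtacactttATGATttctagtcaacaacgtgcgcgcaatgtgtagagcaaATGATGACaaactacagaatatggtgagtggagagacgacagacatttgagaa
gst-8, chrII:4883452-4883572, plus strand: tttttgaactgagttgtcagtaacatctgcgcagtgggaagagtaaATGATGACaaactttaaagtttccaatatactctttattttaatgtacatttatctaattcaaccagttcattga
gst-16, chrII:13624507-13624627, minus strand: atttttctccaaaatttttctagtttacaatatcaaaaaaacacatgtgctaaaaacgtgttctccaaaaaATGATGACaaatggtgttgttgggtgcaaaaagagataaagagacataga
gst-4, chrIV:10142082-10142202, plus strand: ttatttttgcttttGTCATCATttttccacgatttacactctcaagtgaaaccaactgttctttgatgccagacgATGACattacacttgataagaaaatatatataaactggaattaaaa

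In all 6 the double core, read as ATGATGAC, was followed directly by A, so that it overlapped the longer SKN-1 word described below. The gst-4 sequence is also the promoter of gst-2, read from the other strand. The next bound promoters show the other forms seen, counted in the stretches printed. There gst-5 had a lone core, gst-6 had 4 separate cores, gst-22 had 4 cores but no longer SKN-1 word, and gst-20 had none. The 300 bp upstream of gst-20 did hold a SKN-1 word and a double core, the latter 155.5 bp from the summit, outside the printed stretch.
gst-5, chrII:10950219-10950339, plus strand: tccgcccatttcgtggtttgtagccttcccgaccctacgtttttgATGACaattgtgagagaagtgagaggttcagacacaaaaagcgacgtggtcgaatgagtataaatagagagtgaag
gst-6, chrII:4879754-4879874, plus strand: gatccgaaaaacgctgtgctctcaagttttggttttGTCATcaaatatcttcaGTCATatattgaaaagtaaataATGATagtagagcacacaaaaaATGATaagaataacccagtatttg
gst-22, chrV:16232371-16232491, minus strand: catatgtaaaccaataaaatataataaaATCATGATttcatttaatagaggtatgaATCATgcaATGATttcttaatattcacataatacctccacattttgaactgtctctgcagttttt
gst-20, chrII:13609825-13609892, minus strand: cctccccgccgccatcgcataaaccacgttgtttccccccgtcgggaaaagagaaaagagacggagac

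For contrast, gst-14 was weakly bound and gst-18 and gst-34 were unbound although each held a double core, and the unbound gst-10 held a lone core within a longer SKN-1 word. The gst-10 promoter lies in an exact repeat, described below, so that its lack of a summit cannot be read as a lack of binding. The gst-14 stretch is centred on its summit in the pooled list. The others are the 120 bases next to the annotated 5′ end.
gst-14, chrII:13616145-13616265, minus strand: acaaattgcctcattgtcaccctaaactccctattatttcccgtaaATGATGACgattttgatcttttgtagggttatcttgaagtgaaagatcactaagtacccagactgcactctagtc
gst-18, chrII:13630888-13631007, minus strand: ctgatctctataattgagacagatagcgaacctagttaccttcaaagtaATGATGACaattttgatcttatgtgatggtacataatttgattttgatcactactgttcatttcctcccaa
gst-34, chrII:15183240-15183359, minus strand: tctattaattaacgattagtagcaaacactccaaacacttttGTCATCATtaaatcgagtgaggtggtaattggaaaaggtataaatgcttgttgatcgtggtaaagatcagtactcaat
gst-10, chrV:2561570-2561689, plus strand: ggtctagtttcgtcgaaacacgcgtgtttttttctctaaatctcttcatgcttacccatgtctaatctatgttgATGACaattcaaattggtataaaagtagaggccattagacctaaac

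Of the 44 gst genes, 13 were bound, or 29.5%, where 3.89% of all protein-coding genes were bound by the same rule. A further 11, or 25%, were weakly bound, and the corresponding share of all genes was 25.3%, so that the weak class is near its background. The remaining 20, or 45.5%, were unbound, against 70.8% of all genes. The optimal list held 872 peaks (870 on nuclear chromosomes), which were the 872 strongest of the 13302 peaks of the pooled list. The relaxed lists of replicates 1 and 2 held 24771 and 28630 peaks. The relaxed lists include background peaks as input to the reproducibility procedure, with q values (the estimated share of false peaks at that strength) up to 0.960. The signal is the enrichment value deposited by the authors for each peak, on the scale of its list, so that ranks and signals are compared within a list only, and the read depth is not known from these lists.

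The strongest of these peaks lay at gst-1, which encodes a pi-class transferase, on chromosome III. Its signal was 157 in the pooled list, rank 25 of 13302. In replicate 1 it was 116, rank 20, and in replicate 2 it was 54.1, rank 40. The gst-1 promoter thus stood near the top of all 3 lists, and its summit lay 196 bp upstream of the gene. The gst-13 peak on chromosome II had a pooled signal of 155, rank 27, with 91.6 at rank 41 in replicate 1 and 64.0 at rank 31 in replicate 2. Its summit was 1 bp upstream of the annotated 5′ end.

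The stress reporter gene gst-4 and its neighbour gst-2 are transcribed in opposite directions from 5′ ends 163 bp apart on chromosome IV, and a single peak lay between them. Its pooled signal was 115.3 at rank 65. It reached 83.3 at rank 58 in replicate 1 and 28.6 at rank 146 in replicate 2. The summit was 83 bp upstream of gst-4 and 81 bp upstream of gst-2, and the peak cannot be assigned to either gene. It was also 313 bp upstream of dhs-12, a short-chain dehydrogenase gene that starts within the gst-4 gene. The third member of this group, gst-3, lies next to gst-2, and its 5′ end was 1899 bp from the summit. No summit of any list fell in the gst-3 promoter.

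On chromosome II, gst-7 had a pooled signal of 122 (rank 56), with 82.9 (rank 60) in replicate 1 and 30.8 (rank 122) in replicate 2. The adjacent gst-8, whose protein is 85.4% identical to that of gst-7, had a pooled signal of 57.5 (rank 378), with 37.6 (rank 490) and 20.1 (rank 391). The first gene of this run, gst-6, had 52.7 (rank 475), with 33.9 (rank 675) and 16.3 (rank 707). These 3 genes follow each other on the plus strand as gst-6, gst-7 and gst-8. Each had a summit of its own, 77, 86 and 200 bp upstream in that order. In all 3 lists the gst-7 peak ranked above those of both neighbours.

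For gst-5, whose product is known to conjugate the lipid peroxidation product 4-hydroxynonenal, the pooled signal was 85.9 (rank 130), with 60.3 (rank 134) in replicate 1 and 25 (rank 209) in replicate 2. For gst-16 it was 66.4 (rank 247), with 52.0 (rank 193) and 21.1 (rank 331). Both stayed within the strongest 872 peaks of each replicate. The other bound members were less even. For gst-43, the pooled signal of 55.1 (rank 416) combined 43.7 (rank 311, q 0.00117) in replicate 1 with only 6.18 (rank 10006, q 0.428) in replicate 2, and its place in the optimal list rests largely on replicate 1. The gst-36 peak had 50.7 (rank 537), with 40.4 (rank 401) and 13.3 (rank 1299). The gst-20 peak had 50.2 (rank 563), with 29.9 (rank 968) and 18.5 (rank 483). The weakest bound member was gst-22, with 44.7 (rank 791), 22 (rank 2212) and 17.1 (rank 623).

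Taking the 872 strongest peaks of each replicate on its own, 11 members had a summit in replicate 1, where 3.8% of all genes did, and 12 in replicate 2, where 3.62% did. The 9 members bound in both were gst-1, gst-2, gst-4, gst-5, gst-6, gst-7, gst-8, gst-13 and gst-16. Replicate 1 lacked gst-20 and gst-22 and replicate 2 lacked gst-36 and gst-43, while gst-12, not bound by the main rule, entered with replicate 2. Over the 12 distinct bound peaks, Spearman's rho between the signals of the replicates was 0.79, a description over peaks that come from the same 2 libraries and were selected for high signal in both combined. Any summit of the relaxed lists fell in 30 member promoters in replicate 1 and 28 in replicate 2. The shares of all genes were 41% and 43.5%.

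**Figure D1:**
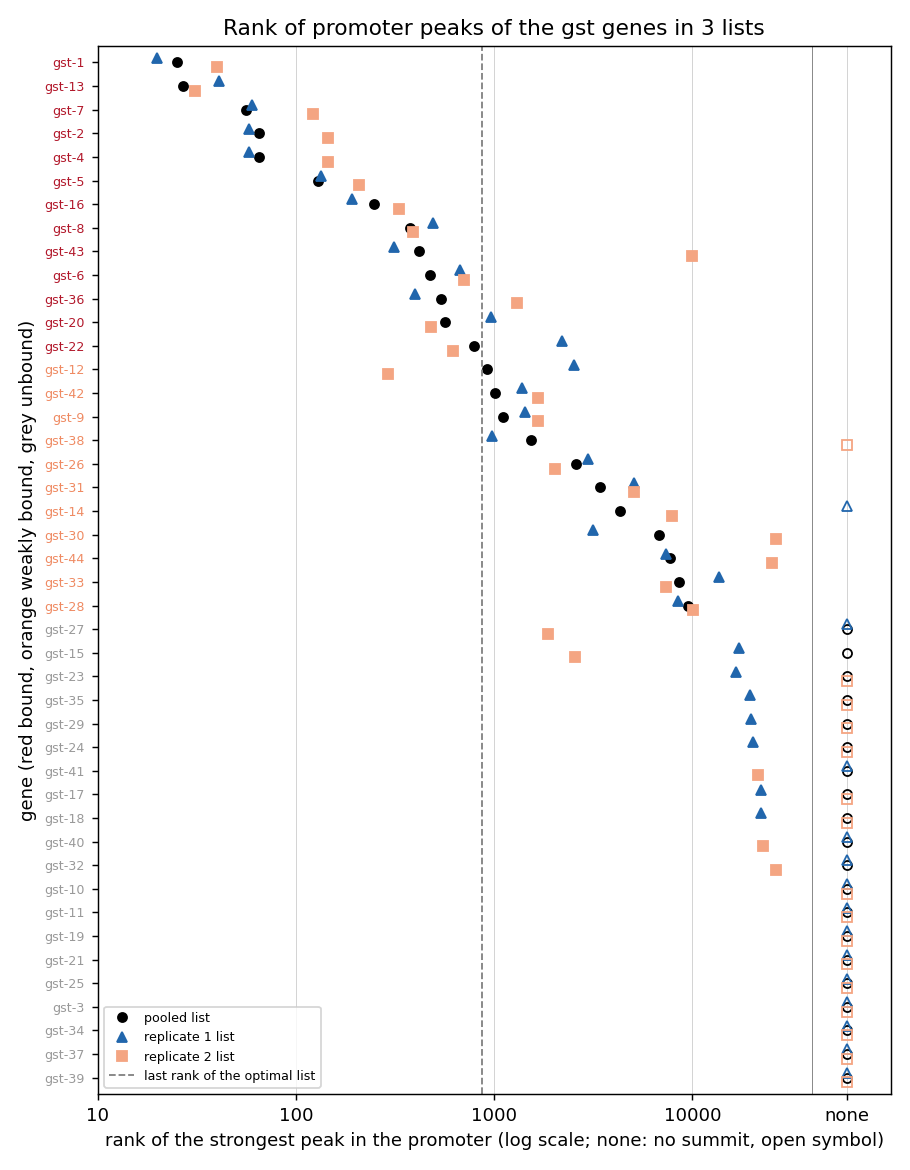
Rank of the strongest peak in the promoter of each of the 44 gst genes (log axis, rank 1 is the strongest peak) in the pooled, replicate 1 and replicate 2 lists, with open symbols where a list had no summit there and a dashed line at rank 872, the last of the optimal list. From gst-1 at pooled rank 25 to gst-22 at 791 the 13 bound genes lie left of the line in the pooled list. Among these bound genes gst-43 has the widest gap between the replicates, at ranks 311 and 10006.

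**Figure D2:**
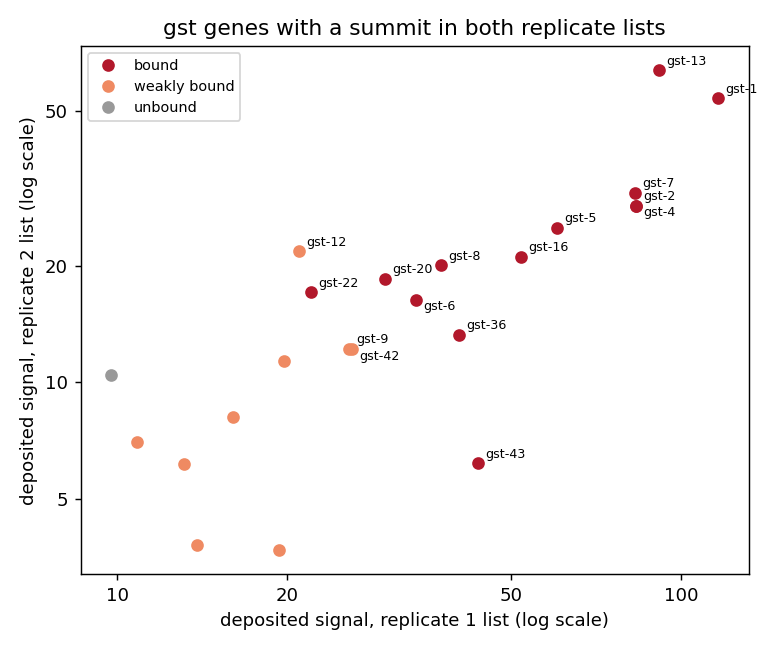
Deposited signal in replicate 1 (x axis) against replicate 2 (y axis), both on log scales with units of each list's own, for gst genes that had a summit in both lists; each point is a gene, colored by class. The gst-1 and gst-13 genes lie at the upper right, and gst-43 lies low for replicate 2, at 6.18, among the bound genes.

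Of the 12 distinct bound peaks, 9 lay in the promoter of no other protein-coding gene. Besides the peak shared with dhs-12, the gst-43 peak was also 256 bp upstream of copa-1, which encodes a coatomer subunit and is transcribed in the opposite direction, and 209 bp upstream of gst-43. The gst-36 peak lay 134 bp upstream of gst-36 and 486 bp upstream of R07B1.5. All 13 bound members had their summit within 250 bp upstream of a 5′ end, from 209 bp to 1 bp, with a median of 86 bp. Over all 777 bound genes 394, or 50.7%, had it there, and the median distance was 228 bp upstream. The 250 bp limit was set after the distances had been seen. Of the weakly bound members 7 of 11 had their summit in that stretch, or 63.6%, and of all weakly bound genes 37.8%.

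**Figure D3:**
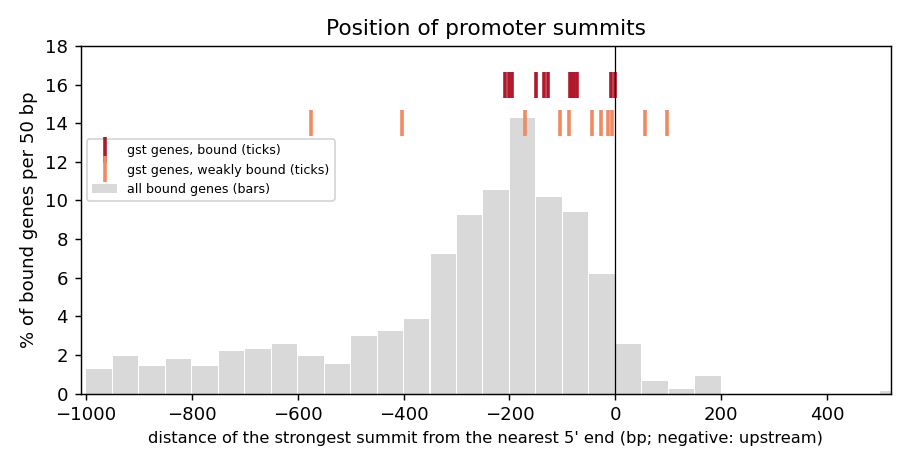
Distance of the strongest promoter summit from the nearest annotated 5′ end in bp, with negative values upstream, as 1 tick for each bound or weakly bound gst gene and as bars of the percent of all 777 bound genes per 50 bp. The bound gst ticks fall between 209 and 1 bp upstream, while the bars reach back to 1000 bp.

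The members were joined into genomic clusters where neighbouring members lay at most 50 kb apart, which placed 26 members in 4 clusters and left 18 on their own. Of the 18 separate members, 6 were bound, 4 weakly bound and 8 unbound. By chromosome, 7 of 25 members were bound on chromosome II (3.57% of all its genes), 2 of 4 on IV (3.96%) and 1 of 9 on V (2.78%). On X it was 1 of 3 (3.26%), on I 1 of 2 (4.73%) and on III 1 of 1 (6.06%). The clusters differed in how many members were bound, and since neighbours share sequence and local chromatin these counts are not independent observations.

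The cluster from gst-6 to gst-30, chrII:4879891-4935054, spans 55.2 kb with 11 other protein-coding genes. All 5 of its members had a summit: gst-6, gst-7 and gst-8 were bound and gst-9 and gst-30 weakly bound. Its 3 optimal summits were those of the bound members. The gst-9 gene had 3 pooled summits, the strongest with signal 39.5 at rank 1115 and q 0.0103. That of gst-30 lay 574 bp upstream, nearer to the neighbouring gene ZK546.5, with signal 19.4 at rank 6774 and q 0.639. The gst-30 promoter did hold a double core, 109.5 bp upstream of the gene, with no pooled summit at it, though both replicate lists had a weak summit close to it (rank 24603 in replicate 1 and 26311 in replicate 2). Its protein is 73.3% identical to that of gst-7.

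The cluster from gst-20 to gst-18, chrII:13608154-13630887, holds 9 members on the minus strand in 22.7 kb with no other protein-coding gene. Here gst-20 and gst-16 were bound, gst-12 and gst-14 weakly bound, and gst-24, gst-15, gst-19, gst-17 and gst-18 unbound. The gst-12 peak fell just outside the optimal list, with a pooled signal of 42.4 at rank 922 and q 0.00488, beside 44.7 at rank 791 for gst-22, the last member inside. In replicate 1 gst-12 had 21 at rank 2526 and in replicate 2 it had 21.8 at rank 293. The adjacent gst-14, 81.3% identical to gst-12 in protein, had a pooled signal of 23.0 at rank 4325 and q 0.366, no summit in replicate 1, and rank 7875 in replicate 2. The double core of gst-14 lay 10.5 bp from its pooled summit. In gst-16, ranked 247, the element lay 14.5 bp from the summit and overlapped the longer SKN-1 word. In gst-14 the base that follows the element differs and no SKN-1 word was found. The unbound gst-18 of this cluster also held a double core that overlapped a SKN-1 word. The part of this base in the difference was not tested.

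The cluster from gst-26 to gst-35, chrII:15163817-15185389, also holds 9 members on the minus strand, in 21.6 kb with 1 other protein-coding gene. None of its members was bound. The weakly bound gst-26 had signal 28.6 at rank 2579, gst-31 had 25.3 at rank 3429, and gst-28 had 17.0 at rank 9514. The other 6, gst-27, gst-29, gst-39, gst-32, gst-34 and gst-35, were unbound. An optimal summit did lie inside this cluster, at chrII:15173193-15173532, with signal 54.1 at pooled rank 437, 592 in replicate 1 and 642 in replicate 2. It was 1447 bp upstream of gst-39 and 1602 bp from the 5′ end of gst-31, outside every promoter as defined here, and it had a core but neither the longer SKN-1 word nor the double core within 100 bp. With the promoter widened to 2000 bp upstream, gst-39 was counted through this summit and gst-3 through the gst-2 and gst-4 peak, which gave 15 bound members and a bound member in all 4 clusters.

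**Figure D4:**
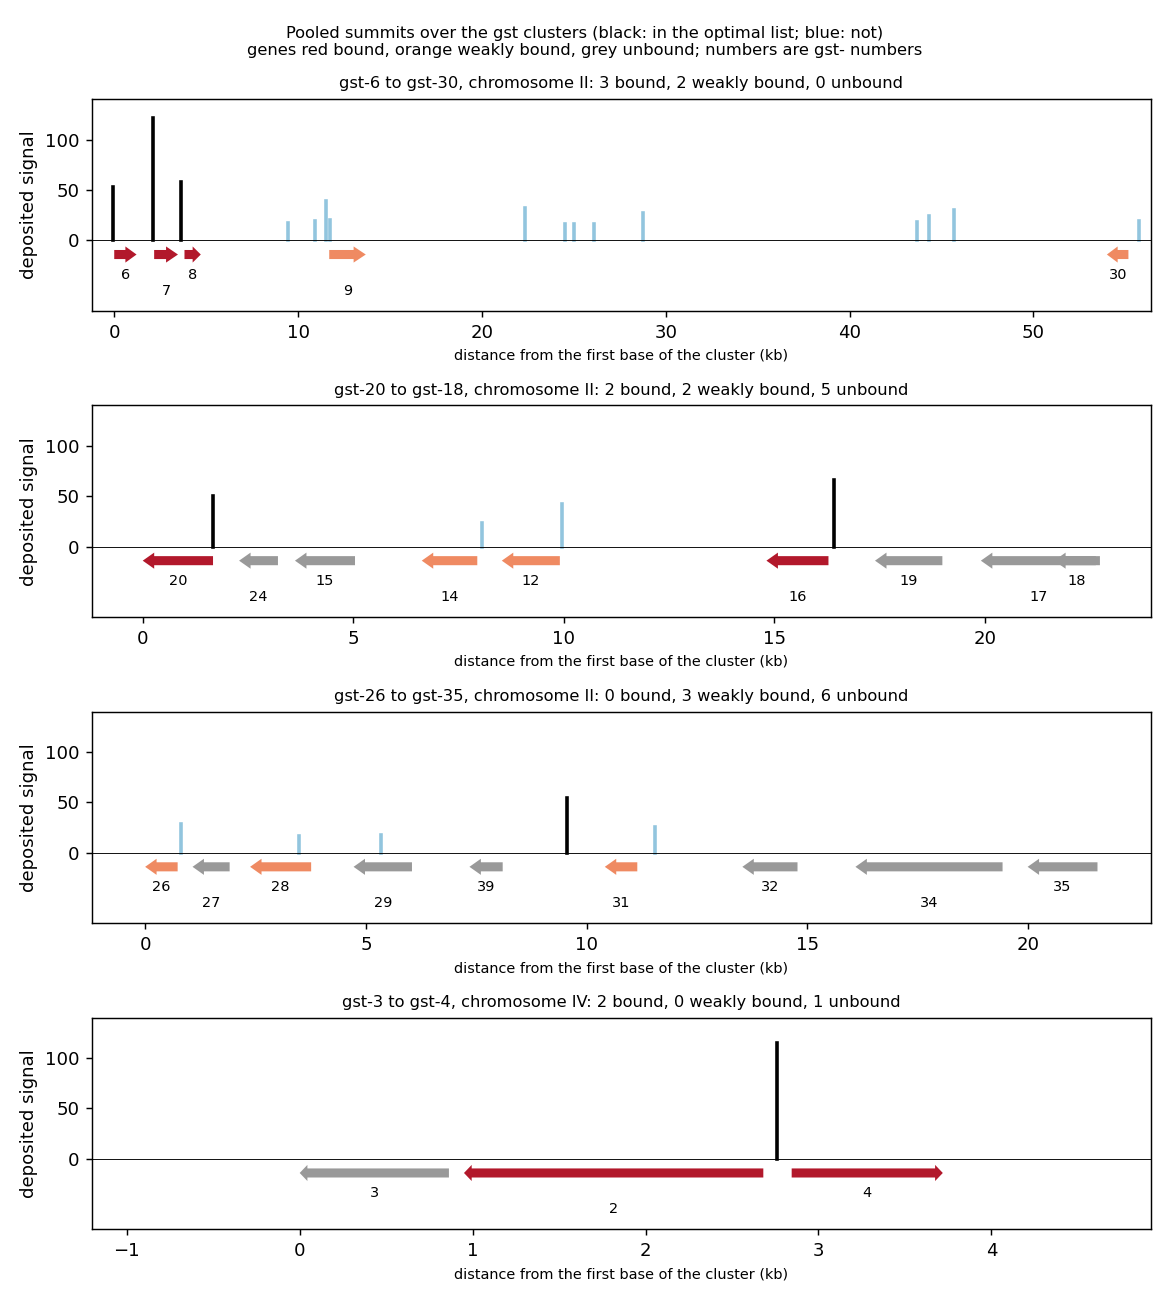
Summits of the pooled list over the 4 gst clusters, as vertical lines of the deposited signal (black where the peak is also in the optimal list, blue where not) against the distance in kb from the first base of each cluster, with gst genes as arrows colored by class. The clusters run from 3 bound and 0 unbound members at gst-6 to gst-30 to 0 bound and 6 unbound at gst-26 to gst-35, where the black line at 54.1 stands between gst-39 and gst-31.

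Among the weakly bound members outside these clusters, gst-42 on chromosome X had a pooled signal of 40.8 at rank 1014 and q 0.00641, with rank 1387 in replicate 1 and 1674 in replicate 2. It encodes the zeta-class enzyme maleylacetoacetate isomerase of tyrosine breakdown, and its closest relative among the members is the bound gst-43, at 56.1% identity. The gst-38 peak had 34.8 at rank 1536 and q 0.0238, with rank 977 in replicate 1 and no summit in replicate 2. The gst-44 peak had 18.5 at rank 7699 and that of gst-33 had 17.7 at rank 8617. Of the 11 weakly bound members, only gst-9, gst-12, gst-38 and gst-42 had a pooled q at or under 0.05, and 4 weakly bound members remained with that limit. The lists of single replicates moved the class the other way: members with a relaxed summit but none among the strongest 872 numbered 19 in replicate 1 and 16 in replicate 2.

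Of the 20 unbound members, 9 had no summit in any of the 4 lists: gst-3, gst-10, gst-11, gst-19, gst-21, gst-25, gst-34, gst-37 and gst-39. The other 11 had a summit in a replicate list without one in the pooled list. The strongest of these were in replicate 2, at gst-27 (rank 1871, q 0.0184) and gst-15 (rank 2570, q 0.0325). In replicate 1 their ranks ran from 16572 to 22193. These 7 members with a replicate 1 summit were gst-15, gst-17, gst-18, gst-23, gst-24, gst-29 and gst-35, and gst-32, gst-40 and gst-41 had weak summits in replicate 2 only.

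Short reads cannot be placed in exact repeats, so the share of each promoter's 36-base words that occur once in the genome was computed. All 13 bound promoters were at least 93.4% unique. Of the 44 promoters, 10 were under 90% unique and none of these was bound: gst-10 (0%), gst-39 (21.4%), gst-28 (54.8%), gst-25 (69.5%), gst-12 (72.3%), gst-32 (77.1%), gst-17 and gst-18 (86.1% each), gst-19 (87.3%) and gst-29 (87.7%). With words of 100 bases only 5 promoters were under 90% unique, gst-10 (0%), gst-39 (22.7%), gst-28 (70.2%), gst-25 (82.9%) and gst-12 (84.6%), and none of these was bound. Among the 34 members with more unique promoters by the 36-base measure, 13 were bound, 9 weakly bound and 12 unbound. The read length and the treatment of reads with several matches were not stated, and the part of repeats in the missing peaks was not tested. For gst-10, which is known to act on 4-hydroxynonenal, the measure leaves nothing to read: its promoter lies in a stretch of 34500 bp at chrV:2528416-2562915 that is repeated exactly at chrV:2420137-2454636, and neither copy held a summit in any of the 4 lists.

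The SKN-1 word was searched on both strands in its 8 spellings, AATATCAT and AATGTCAT and ATTATCAT and ATTGTCAT and TATATCAT and TATGTCAT and TTTATCAT and TTTGTCAT, each of which ends in a core. Within 100 bp of the summit it was present at 9 of the 12 distinct bound member peaks (75%, exact 95% interval 42.8% to 94.5%). The share over all 870 optimal summits was 27.6% (24.6% to 30.7%). At the 13 peaks of the 11 weakly bound members (gst-9 has 3) it was present at 2, or 15.4% (1.92% to 45.4%), and over the other pooled summits at 12.6%. The intervals cover counting only. The word's distance from the summit was 3.5 bp at gst-1, 6.5 at gst-13, 7.5 at gst-8, 11.5 at gst-5, 14.5 at gst-7, 17.5 at gst-16, 18.5 at the gst-2 and gst-4 peak, 23.5 at gst-6 and 61.5 at gst-36. It was not found at gst-43, gst-20 or gst-22. In 8 of these 9 peaks it was therefore within 50 bp of the summit, beside a modal peak width of 340 bp in the optimal list. These distances come from a search that reached only 100 bp to each side. The share of all optimal summits with the word within 50 bp is not given here, so this closeness has no background.

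The core alone was present at 11 of the 12 bound peaks, with gst-20 as the exception, and at 69.9% of all optimal summits. The double core, a spelling chosen after the member sequences had been seen, was present at 6 of the 12 (50%, 21.1% to 78.9%) and at 96 of all 870 optimal summits (11.0%). It lay 0.5 bp from the summit at gst-1, 3.5 at gst-13, 10.5 at gst-8, 11.5 at gst-7, 14.5 at gst-16 and 42.5 at the gst-2 and gst-4 peak. At the 13 weakly bound peaks the double core was present at 2, or 15.4% (1.92% to 45.4%), and over the other pooled summits at 1.44%. These were the peaks of gst-12, at 58.5 bp from the summit and with a SKN-1 word at 61.5 bp, and of gst-14, at 10.5 bp. Both elements of gst-12 lay inside the gene, downstream of its 5′ end. The 300 bp upstream of gst-12 held neither. The GATA word TGATAA, bound by the intestinal GATA factors, was present at 4 of the 12 and at 39.2% of optimal summits. The 7-base forkhead word (T, then A or G, T, T, then G or T, A or G, and C or T) was present at 9 of the 12 and at 59.7%, and its strict form TGTTTAC or TGTTTGC at 3 of the 12, gst-43, gst-5 and gst-36, and at 13.7%.

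The same words were then counted in the 300 bp upstream of each gene, whatever the peaks there. The SKN-1 word was present upstream of 12 of the 13 bound members, 3 of the 11 weakly bound and 10 of the 20 unbound. That is 25 of 44, or 56.8% (41.0% to 71.7%), where 16.4% of all 19973 genes and 24.5% of all bound genes had it. The double core was upstream of 8 bound, 2 weakly bound and 6 unbound members, which is 16 of 44, or 36.4% (22.4% to 52.3%), at 14 distinct places. It was upstream of 349 of all genes, or 1.75%, and of 45 of all 777 bound genes, or 5.79%. This spelling was chosen after the member sequences had been seen. That choice favours a higher share among the members, so these values and their intervals are a description only. Among the unbound members alone the shares were 50% (27.2% to 72.8%) for the SKN-1 word and 30% (11.9% to 54.3%) for the double core. By 36-base words, the promoters of the unbound members with the SKN-1 word differed in uniqueness. They were 0% unique for gst-10, 21.4% for gst-39, 69.5% for gst-25, 86.1% for gst-17 and gst-18 and 87.3% for gst-19. For gst-35, gst-24, gst-34 and gst-37 they were 93.7%, 97.2%, 100% and 100% unique. A missing summit at the less unique promoters is not a measured absence of binding. The core was upstream of 81.8% of members and 68.9% of all genes, the GATA word of 29.5% and 30.7%, and the forkhead word of 68.2% and 67.6%. The strict forkhead word was upstream of 11.4% of members and 12.2% of all genes. The median base composition of the 300 bp was 33.5% GC for members and 33.3% for all genes.

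Read the other way, 12 of the 25 members with a SKN-1 word upstream were bound and 1 of the 19 without. Those with the word but not bound include gst-10, gst-39, gst-25, gst-17, gst-18 and gst-19, whose promoters are repeated wholly or in part. By 100-base words, however, gst-17 and gst-18 were 94.8% unique and gst-19 was 100% unique. The rest were the unbound gst-24, gst-34, gst-35 and gst-37 and the weakly bound gst-30, gst-31 and gst-38. Their promoters were at least 93.7% unique by 36-base words. Over all genes 5.81% of those with the word and 3.51% of those without were bound. Of the 16 members with a double core upstream, 8 were bound, and of the 28 without, 5 were. Over all genes 12.9% of the 349 with a double core were bound and 3.73% of the others. The 6 unbound members with a double core were gst-17 and gst-18, which share the same element, gst-25, gst-34, gst-35 and gst-37. Of these gst-34 and gst-37 had fully unique promoters and no summit in any list. In gst-34 the element lay 74.5 bp upstream of the gene, at the same distance as in gst-7, whose peak ranked 56.

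**Figure D5:**
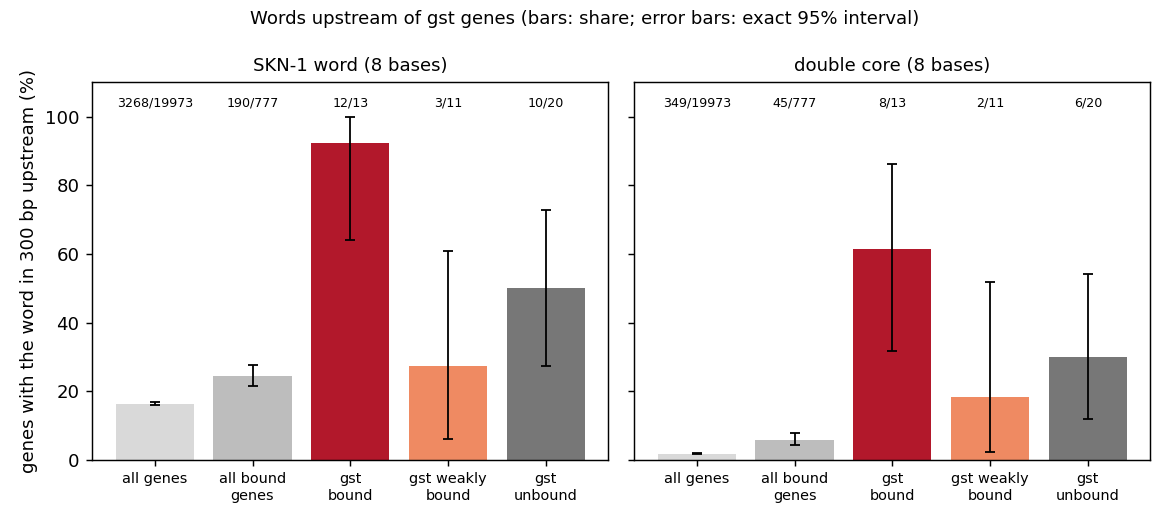
Percent of genes with the SKN-1 word (left) or the double core (right) in the 300 bp upstream, for all genes, all bound genes and the bound, weakly bound and unbound gst genes, with exact 95% intervals as error bars and the counts above. For the SKN-1 word the bars stand at 12 of 13 bound, 3 of 11 weakly bound and 10 of 20 unbound members, and at 16.4% of all genes. The unbound members with this word include gst-10, gst-39, gst-25, gst-17, gst-18 and gst-19, whose promoters are repeated wholly or in part. The others are gst-24, gst-34, gst-35 and gst-37, whose promoters are at least 93.7% unique by 36-base words. The upstream stretches of gst-2 and gst-4 overlap, as do those of gst-17 and gst-18, so that these genes are not separate observations. The intervals treat genes as independent, which neighbours within a cluster are not. The double core was chosen after the member sequences had been seen.

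The proteins, aligned from the annotated coding sequences, were compared to see whether close relatives fell in the same class. For 6 of the 13 bound members the closest relative in the family was itself bound, and for 11 of the 31 others it was bound. For 20 members the closest relative lay in the same cluster. Bound and unbound relatives included gst-22 and gst-34, at 78.4% identity, and gst-1 and gst-23, at 69.2%. The unbound gst-25 was 67.8% identical to gst-1. The bound gst-5 and the weakly bound gst-38 were 66.7% identical. In the third cluster of chromosome II, gst-26 and gst-27 were 85.2% identical and were weakly bound and unbound.

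Other genes linked to glutathione gave a setting for these counts. The list of 30 covers synthesis, reduction, peroxidases, other transferases, glutaredoxins, transporters of the mrp family and glod-4. Of these 30, 5 were bound, 13 weakly bound and 12 unbound, where the shares of all genes were 3.89%, 25.3% and 70.8%. The bound genes were glrx-10, a glutaredoxin (pooled signal 139, rank 39), gpx-1, a glutathione peroxidase (135, rank 43), gcs-1, the catalytic subunit that starts glutathione synthesis (120, rank 57), gsr-1, glutathione reductase (50.4, rank 549), and mrp-5, an ABC transporter (47.9, rank 649). In replicates 1 and 2 these ranked 28 and 84 for glrx-10, 42 and 65 for gpx-1, 45 and 126 for gcs-1, 583 and 355 for gsr-1, and 513 and 1923 for mrp-5. The strongest of them stood among the strongest gst peaks, between gst-13 at rank 27 and gst-2 and gst-4 at rank 65. The omega-class and kappa-class transferase genes gsto-1, gsto-2, gstk-1 and gstk-2 were weakly bound and gsto-3 was unbound, so that none of these 5 was bound.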

How the data were processed

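Peak lists of 2 biological replicates (1 group) were used in build ce11, the browser name of WBcel235; no peak passed a chromosome end, and the ce10 lists were not used. Each deposited peak has a signal value and a −log10 q value made by the authors, and q was computed back from the latter. The labels give no aligner, peak caller, depth or cutoff of the optimal list (not given in the sources used here). Summits, coordinates (1-based) and promoters follow the text. Words were found by exact match. Proteins were aligned globally (BLOSUM62, gap opening 10, extension 0.5) and identity is over the shorter protein. Without a comparison of conditions no statistical test was run, and whether the replicates came from separate cultures is not stated beyond their label. Intervals are exact 95% binomial intervals. Summit assignment at the outermost 5′ end and the search for the SKN-1 word were tested on planted summits and words. The background of the word test held only C and G, so that it could not show false hits. The other words were not tested in this way. The members, the pathway list and the words were chosen with earlier results of these data known. Genes named are every member, every gene whose promoter shares a bound member's summit, and the bound genes of the pathway list; other names were chosen after their values were seen. Python 3.11, numpy 2.4.6, scipy 1.17.1, Biopython 1.88 and matplotlib 3.10.9 were used.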

Additional observations from a re-analysis of the deposited data

How the results depend on the processing

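The counts of bound, weakly bound and unbound members, of distinct bound peaks, of clusters with a bound member, of bound peaks with the SKN-1 word and of bound pathway genes were recomputed under other promoter windows, 5′ ends, peak sets, cluster gaps and word windows, which gave 52 values. Of these, 50 were within 1.5 times the value reported. The 2 exceptions concerned the weakly bound class of 11 members, which came to 4 with pooled peaks of q at most 0.05 and to 19 without replicate 2. Without replicate 1 it was 16. The bound count ran from 9 with the stronger part of the optimal list to 15 with a promoter of 2000 bp, and was 12 without replicate 1 and 11 without replicate 2. The double core, chosen after seeing the data, gave 6 bound peaks in place of 9 for the SKN-1 word, just at the limit of 1.5 times. Some of the values could not have gone beyond that limit. Restriction to promoters at least 90% unique had to keep all 13 bound members, whose promoters were at least 93.4% unique. Each SKN-1 word contains the core, so the count with the core could not fall below 9. No paired analysis was possible because there was 1 group and no contrast. Weak peaks near the threshold, such as those of gst-12 and gst-22, are the limit of these classes, and an unbound promoter shows only that no summit was listed there at a depth that is unknown.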

Other observations

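Bound members had a median of 618 bp between their 5′ end and the next gene upstream (163 to 4242 bp), weakly bound members 763 bp (179 to 4905) and unbound members 931.5 bp (0 to 11343). The ranges overlap. The proteins had a median length of 207 amino acids for bound, 210 for weakly bound and 209 for unbound members. The longest was that of gst-44, at 254 amino acids, which was also the least like any other member, with 28.4% identity to gst-16.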
